A study of Mus musculus with 62 samples.

Results

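Tau (*Mapt*), the microtubule-associated proteins *Map1a*, *Map1b*, *Map2*, *Map4* and *Map6*, and the stathmins *Stmn1*, *Stmn2*, *Stmn3* and *Stmn4* were followed as 10 of the 11121 genes in a count table of mouse prefrontal cortex (PFC) and nucleus accumbens (NAc, written Nac in the sample titles). They were chosen by gene symbol, with earlier results of the same libraries known, and all 10 were listed and passed the filter on low counts in every comparison. The values behind that choice are not recorded, so the differences below serve as descriptions of these libraries and the p-values as no independent support. The animals were wild-type C57BL/6j mice of 15 weeks, either unstressed (CTR) or exposed to multimodal chronic restraint stress (mCRS), in which mice are restrained daily under changing light, noise, motion or predator odor, with tissue taken some days after the last session. Every mouse, CTR included, had also passed through the same battery of behavioral tests, and each library came from one hemisphere. There were 15 libraries each of PFC CTR and PFC mCRS and 16 each of NAc CTR and NAc mCRS. Which PFC and NAc libraries came from the same mouse is not stated. Comparisons between the regions were fitted without a term for the mouse, so their standard errors and p-values ignore any pairing.

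Microtubules are hollow polymers of tubulin that give axons and dendrites their shape and carry their transport. Tau and the MAPs bind along the polymer and stabilize or bundle it, tau mainly in axons and MAP2 mainly in dendrites, whereas MAP1B is most abundant while neurons grow and MAP1A in the mature brain. Stathmins do the opposite: they bind free tubulin dimers and favor disassembly, and their phosphorylation releases the tubulin. Stathmin-1 is found in many cell types, and Stmn2 (SCG10), Stmn3 (SCLIP) and Stmn4 (RB3) are mostly neuronal.

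The libraries were 3′-end RNA sequencing (BRB-seq) libraries with total counts from 945286 to 4857359. Genes with at least 1 count made up 87.1% ± 4.42 (SD, n = 15) of those listed in PFC CTR, 82.3% ± 6.22 (SD, n = 15) in PFC mCRS, 90.2% ± 7.13 (SD, n = 16) in NAc CTR and 88.5% ± 7.43 (SD, n = 16) in NAc mCRS. The share of counts from mtDNA-encoded genes was 12.88% ± 3.004 (SD, n = 15) in PFC CTR and 16.04% ± 3.64 (SD, n = 15) in PFC mCRS. The tissue labels were matched by their defining markers, with 8 of 8 cortical excitatory markers higher in PFC and 9 of 9 striatal projection neuron markers higher in NAc. Of the 8 cortical markers only 2 passed the filter on low counts among NAc libraries alone. The others passed through PFC, where they are high, so their direction is no independent check. All 9 striatal markers passed among PFC libraries alone. One library, NAc CTR 7, stood apart with a summed striatal marker level of 524 CPM (counts scaled to a library of 1000000) against a group median of 4966 CPM, and NAc mCRS 10 held 21741 CPM of choroid plexus markers against a group median of 53.3 CPM. Levels are given below as CPM after TMM scaling, and fold changes are log2 values from edgeR. Their standard error (SE) was derived as the absolute log2 value over the square root of the F statistic of the test. Adjusted p-values were Benjamini-Hochberg values over all genes tested. A gene was called at an adjusted p below 0.05.

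The promoters of *Map1a* and *Stmn3* are shown. The first was the MAP lowest in PFC relative to NAc. The second was a stathmin higher in PFC, and the only stathmin with a promoter entry used here. Their levels had a negative correlation among libraries of both regions, which passed correction in NAc alone. *Map1a* (ENSMUSG00000027254) lies at chr2:121289600-121310832 on the plus strand of GRCm38 and *Stmn3* (ENSMUSG00000027581) at chr2:181306459-181314500 on the minus strand. The sequences are RefSeq promoters of GRCm38.p6, from 250 bases before to 50 bases after the gene start, read 5′ to 3′, with the letters GGGCGG or their reverse complement CCGCCC (a GC box) in capitals.
Map1a promoter, chr2:121289352-121289651, plus strand: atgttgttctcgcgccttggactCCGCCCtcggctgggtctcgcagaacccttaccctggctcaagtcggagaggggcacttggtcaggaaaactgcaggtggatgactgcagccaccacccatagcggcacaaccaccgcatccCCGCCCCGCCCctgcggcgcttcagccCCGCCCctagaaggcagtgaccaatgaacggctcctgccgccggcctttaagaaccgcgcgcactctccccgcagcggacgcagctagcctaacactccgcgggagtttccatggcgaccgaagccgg
Stmn3 promoter, chr2:181314451-181314750, minus strand: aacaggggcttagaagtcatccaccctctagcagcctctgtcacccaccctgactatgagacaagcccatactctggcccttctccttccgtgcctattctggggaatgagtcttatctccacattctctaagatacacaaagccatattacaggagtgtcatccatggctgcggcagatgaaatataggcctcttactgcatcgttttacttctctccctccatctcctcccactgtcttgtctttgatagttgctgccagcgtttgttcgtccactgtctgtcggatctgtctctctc
The *Map1a* window held 4 GC boxes, some sharing bases, and 27 CpG dinucleotides, whereas the *Stmn3* window held 0 GC boxes and 6 CpG dinucleotides. Of 32851 RefSeq promoters, 35.7% held a GC box on either strand and the median CpG count was 7. Neither window held TATAAA on either strand, which 13.6% of all promoters did. RefSeq entries were used for 5 of the 10 genes, with *Stmn3* the only stathmin, so the windows do not compare MAPs with stathmins.

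All 4 stathmin transcripts were higher in PFC than in NAc of CTR mice, and *Stmn1*, *Stmn2* and *Stmn3* also in mCRS mice. In CTR mice 4 of the 10 genes were called, all 4 of them stathmins and all higher in PFC, where 5.44% of the 11025 genes tested were called and 3.56% were called as higher in PFC. In mCRS mice 3 of the 10 were called, all higher in PFC, against 6.49% called and 3.86% called as higher over all genes. None of tau and the 5 MAPs was called in either comparison.

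*Stmn2*, the stathmin of growing axons and of axon repair (chr3:8509360-8561606), gave the clearest separation. In PFC CTR its lowest, median and highest levels were 655, 847 and 1109 CPM, and in NAc CTR they were 297, 501 and 678 CPM. Of the 15 PFC CTR libraries, 14 lay above every NAc CTR library. In mCRS mice the levels were 594, 1004 and 1608 CPM in PFC and 260, 412 and 690 CPM in NAc, and 13 of 15 PFC libraries lay above every NAc library. The log2 difference was 0.90 (SE 0.14, edgeR adjusted p = 4.28e-07) in CTR and 1.20 (SE 0.14, edgeR adjusted p = 4.66e-11) in mCRS mice.

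*Stmn1*, which encodes stathmin itself (chr4:134468320-134473843), had the largest fold difference of the 10 genes and low levels. The lowest, median and highest values were 27.2, 117 and 172 CPM in PFC CTR and 2.69, 37.8 and 68.6 CPM in NAc CTR. Of the PFC CTR libraries 12 of 15 exceeded every NAc CTR library, while 2 of 15, PFC CTR 5 and PFC CTR 13, lay below the NAc CTR median. In mCRS mice all 15 PFC libraries lay above the NAc median of 40.1 CPM and 5 lay above the highest NAc library. The log2 difference was 1.56 (SE 0.32, edgeR adjusted p = 0.000361) in CTR and 1.27 (SE 0.32, edgeR adjusted p = 0.00444) in mCRS mice. Of the 70-base windows in the last 1000 bases of *Stmn1* transcripts, 22.4% had a perfect copy in the annotated gene *Gm11223*, so reads from them could have been lost from a count of uniquely mapped reads.

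*Stmn3* spanned 547, 752 and 1303 CPM (lowest, median, highest) in PFC CTR and 397, 479 and 880 CPM in NAc CTR. All 15 PFC CTR libraries were above the NAc CTR median but only 3 were above its highest libraries, NAc CTR 7 at 879.9 CPM and NAc CTR 3 at 879.2 CPM. In mCRS mice the values were 622, 813 and 1272 CPM in PFC and 343, 554 and 674 CPM in NAc, and 13 of 15 PFC libraries exceeded every NAc library. The log2 difference was 0.51 (SE 0.13, edgeR adjusted p = 0.00867) in CTR and 0.69 (SE 0.13, edgeR adjusted p = 0.000112) in mCRS mice.

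*Stmn4* (chr14:66344296-66361680) was called in CTR mice alone. Its levels were 156, 295 and 399 CPM in PFC CTR and 62.2, 154 and 247 CPM in NAc CTR, and 9 of 15 PFC libraries exceeded every NAc library. In mCRS mice the ranges overlapped throughout, with 132, 293 and 487 CPM in PFC and 65.2, 212 and 497 CPM in NAc. The log2 difference was 0.90 (SE 0.21, edgeR adjusted p = 0.00193) in CTR and 0.39 (SE 0.21, edgeR adjusted p = 0.382) in mCRS mice. The test of the change in this difference, which is the mCRS effect in PFC minus that in NAc, gave -0.52 on the log2 scale (SE 0.30, unadjusted p = 0.086, adjusted p = 1 in edgeR), so the region difference was not shown to differ between CTR and mCRS mice.

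**Figure D1:**
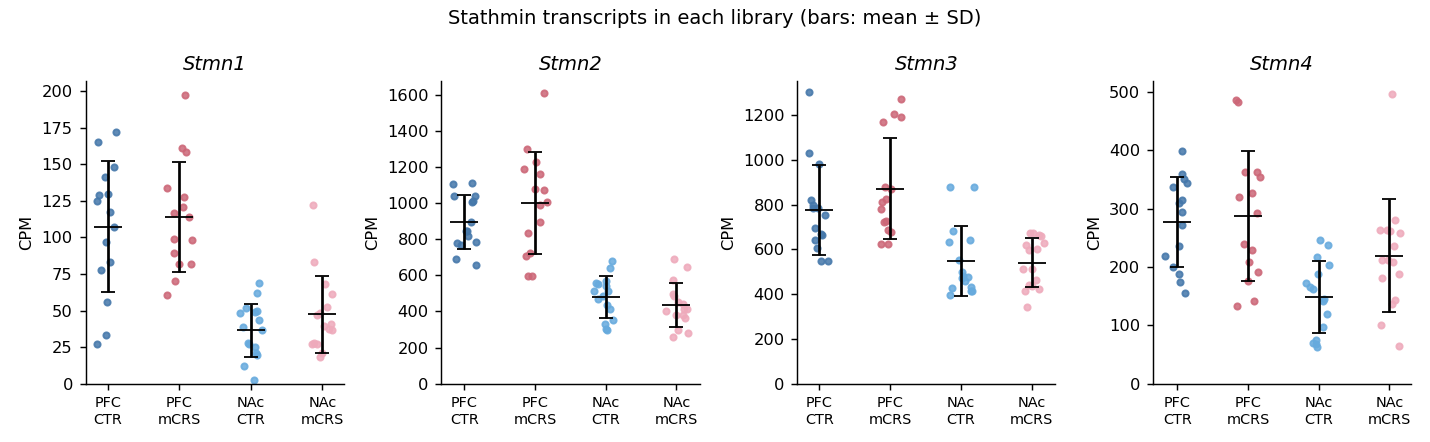
Levels of the 4 stathmin transcripts (CPM, linear axis from 0) in the 62 libraries, by group. Points are libraries and bars the mean ± SD. Nearly all PFC points of Stmn2 lie above the NAc points, with means of 893 CPM in PFC CTR and 478 CPM in NAc CTR, whereas the mCRS groups of Stmn4 overlap.

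Cell type markers also differed between the regions, in both directions. The summed level of 8 cortical excitatory markers ranged from 865 to 1616 CPM in PFC CTR and from 45.0 to 288 CPM in NAc CTR, and that of 9 oligodendrocyte markers from 1855 to 6414 CPM in PFC CTR and from 5538 to 8495 CPM in NAc CTR. Of the 9 oligodendrocyte markers, 0 were higher in PFC, and 5 in CTR and 7 in mCRS mice were called as lower. Of 6 immature neuron markers tested, 1 in CTR and 2 in mCRS mice were higher in PFC. Their median log2 difference was -0.93 in CTR and -0.30 in mCRS mice. The 2 hypothalamus markers listed had a median summed level of 0.596 CPM in PFC CTR and 192 CPM in NAc CTR. The part of cell composition in the stathmin differences was not tested. In bulk tissue, fewer cells of a type and less RNA per cell cannot be told apart. Without NAc CTR 7 and NAc mCRS 10 the same numbers of stathmins were called.

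The libraries were listed in 2 runs of CTR and mCRS libraries per region, and the labels do not say whether these were batches. All 4 stathmins were higher in PFC in both runs for CTR mice, and fewer were called within a run, where groups held 7 or 8 libraries. The share of all genes called within a run was not counted, so the counts of members cannot be set against it. In the first run 2 of the 10 genes were called in CTR mice, since *Stmn1* (1.35 on the log2 scale, edgeR adjusted p = 0.264) and *Stmn3* (0.36, edgeR adjusted p = 0.666) were no longer called. In the second run 1 of the 10 genes was called in mCRS mice, with *Stmn1* at 1.38 (edgeR adjusted p = 0.0587) and *Stmn3* at 0.54 (edgeR adjusted p = 0.0587). The *Stmn4* difference in CTR mice was 1.26 (edgeR adjusted p = 0.0143) in the first run and 0.58 (edgeR adjusted p = 0.409) in the second.

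For tau and the MAPs the log2 differences between the regions lay between -0.48 and 0.34, and none was called. *Map1a*, the MAP of mature axons and dendrites, was lower in PFC: its lowest, median and highest levels were 232, 580 and 913 CPM in PFC CTR and 545, 729 and 913 CPM in NAc CTR. In PFC CTR 14 of 15 libraries lay below the NAc CTR median and 6 below its lowest library. In mCRS mice the values were 119, 541 and 838 CPM in PFC and 456, 694 and 959 CPM in NAc. The log2 difference was -0.42 (SE 0.16, edgeR adjusted p = 0.135) in CTR and -0.48 (SE 0.16, edgeR adjusted p = 0.0505) in mCRS mice, just outside the threshold. With RLE size factors in place of TMM the adjusted p in mCRS mice was 0.018, and with DESeq2 it was 0.0315 in CTR and 0.00976 in mCRS mice. With the detected share in the model it was 0.108 in mCRS mice. The value moved with the run of the listing: in CTR mice it was -0.21 (SE 0.23) in the first and -0.65 (SE 0.20) in the second run, and in mCRS mice -0.79 (SE 0.24) in the first and -0.20 (SE 0.19) in the second, with no call in any of them. The *Map1a* transcripts overlap exons of *Ppip5k1* on the opposite strand, and 10.9% of the 70-base windows at their 3′ end were found in *Ppip5k1* transcripts. The strand setting of the counting is not given in the sources used here, so reads of both genes may not be fully told apart.

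*Map2*, the dendritic MAP (chr1:66175273-66442583), had medians of 685 CPM in PFC CTR and 552 CPM in NAc CTR, with a log2 difference of 0.34 (SE 0.14, edgeR adjusted p = 0.182) in CTR and 0.29 (SE 0.14, edgeR adjusted p = 0.272) in mCRS mice. Of the PFC CTR libraries 6 of 15 exceeded every NAc CTR library, and 0 of 15 did so in mCRS mice. The CTR difference was 0.12 (SE 0.21) in the first and 0.60 (SE 0.19, edgeR adjusted p = 0.0776) in the second run of the listing. *Map1b*, the MAP of growing neurites (chr13:99421446-99516540), differed by 0.13 (SE 0.10) in CTR and 0.05 (SE 0.10) in mCRS mice, and the latter value turned to -0.0048 under RLE size factors. *Map4*, the MAP also made by non-neuronal cells (chr9:109931460-110083955), differed by -0.23 (SE 0.18) and -0.14 (SE 0.18), and *Map6*, the stable tubule-only protein (chr7:99267447-99337137), by 0.26 (SE 0.30) and -0.01 (SE 0.31). *Map6* was the most variable of the MAPs, with 1.33 CPM (2 counts) in NAc CTR 1 and 360 CPM in PFC CTR 1. *Mapt* (ENSMUSG00000018411, chr11:104231390-104332090) was at 0.20 (SE 0.14, edgeR adjusted p = 0.694) in CTR and -0.22 (SE 0.15, edgeR adjusted p = 0.517) in mCRS mice.

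**Figure D2:**
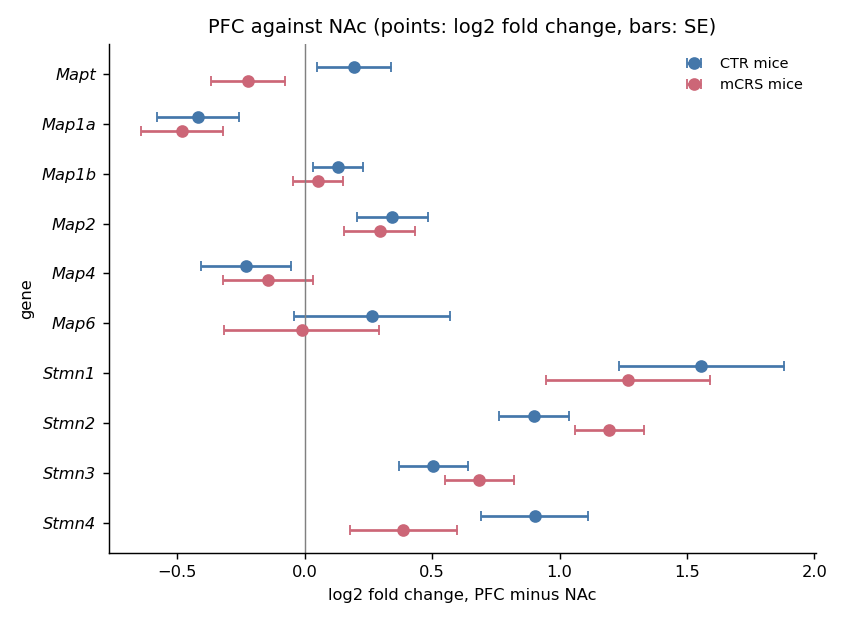
Log2 fold change of each gene between PFC and NAc (x axis, positive values are higher in PFC) in CTR and mCRS mice, with bars of 1 SE. The 4 stathmins lie between 0.39 and 1.56, and Map1a lies below 0 in both groups.

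Tau transcript was lower in the PFC of mCRS mice, but no member passed correction over the 8916 genes tested, nor did any other gene (0% called in edgeR, and 0 genes with DESeq2). The *Mapt* level had a lowest, median and highest value of 363, 685 and 1099 CPM in PFC CTR and 294, 460 and 780 CPM in PFC mCRS. The groups overlapped, although 14 of the 15 mCRS libraries were below the CTR median and 2 were below the lowest CTR library. Mean levels were 700.3 ± 188 CPM (SD, n = 15) in CTR and 484 ± 118 CPM (SD, n = 15) in mCRS mice, and the log2 fold change was -0.53 (SE 0.15, unadjusted p = 0.000753, adjusted p = 0.56 in edgeR). By p, *Mapt* ranked 11 of the 8916 genes.

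The size of the *Mapt* difference varied with the run of the listing, and whether the runs differed was not tested. In the first run the levels were 818 ± 154 CPM (SD, n = 8) in CTR and 456 ± 98.5 CPM (SD, n = 7) in mCRS mice, a log2 fold change of -0.85 (SE 0.20, edgeR adjusted p = 0.152). In the second run they were 566 ± 124 CPM (SD, n = 7) and 508 ± 135 CPM (SD, n = 8), a log2 fold change of -0.15 (SE 0.21, edgeR adjusted p = 1). With the run as a covariate the value was -0.49 (SE 0.15), and with the detected share of genes, which was lower in mCRS libraries, it was also -0.49 (SE 0.16). Leaving out each of the 30 libraries in turn gave values from -0.59 to -0.47.

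*Map1b* was next, with lowest, median and highest levels of 1284, 1606 and 2280 CPM in CTR and 1095, 1383 and 1702 CPM in mCRS mice. Of the mCRS libraries 13 of 15 lay below the CTR median and 5 below the lowest CTR library. The log2 fold change was -0.25 (SE 0.10, unadjusted p = 0.0165, adjusted p = 1 in edgeR). It was -0.31 (SE 0.16) in the first and -0.19 (SE 0.15) in the second run of the listing. Cell type markers moved beside these values, though none was called: 1 of 8 cortical excitatory markers was higher in mCRS mice, with a median log2 fold change of -0.31, and their summed level ranged from 865 to 1616 CPM in CTR and from 712 to 1492 CPM in mCRS libraries. Of 7 astrocyte markers 0 were higher (median -0.10, 1 lower at an unadjusted p below 0.05 in edgeR), while 6 of 9 oligodendrocyte markers were higher (median 0.10). Their part in the *Mapt* and *Map1b* values was not tested. With *Mapt*, this made 2 of the 10 genes at an unadjusted p below 0.05, where 3.5% of all genes tested had one. With the detected share in the model 1 of the 10 remained, as *Map1b* then had an unadjusted p of 0.0585 in edgeR.

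Of tau and the MAPs, 1 of 6 had a higher fitted level in mCRS mice, whereas 4 of 4 stathmins did, and none of these 5 had an unadjusted p below 0.05. Over all genes 49.3% had a higher fitted level. The log2 fold changes were -0.24 (SE 0.15) for *Map2*, -0.20 (SE 0.31) for *Map6*, -0.15 (SE 0.19) for *Map1a* and 0.04 (SE 0.20) for *Map4*, and 0.17 (SE 0.14) for *Stmn3*, 0.17 (SE 0.13) for *Stmn2*, 0.10 (SE 0.28) for *Stmn1* and 0.06 (SE 0.19) for *Stmn4*. The median over the 10 genes was -0.06, beside -0.01 over all genes. With the detected share in the model *Map1a* turned to 0.09 and *Stmn2* to -0.01, and with the replicate number as a block *Stmn4* turned to -0.0020.

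Fold changes over all genes also moved with transcript length. By the longest GENCODE transcript, the median log2 fold change in PFC was 0.05 for 1636 genes under 2000 bases, -0.0041 for 3417 genes from 2000 to under 4000 bases, -0.04 for 3167 genes from 4000 to under 8000 bases and -0.07 for 695 genes of 8000 bases and over. *Stmn1*, *Stmn3* and *Stmn4* fall in the shortest class and *Stmn2* in the next, while *Mapt*, *Map2*, *Map4* and *Map6* fall in the class from 4000 to under 8000 bases and *Map1a* and *Map1b*, with transcripts of 11825 and 11808 bases, in the longest. The same order held in NAc, with medians of 0.05, 0.01, -0.03 and -0.08. It also held for PFC against NAc, with medians of 0.0565, -0.0515, -0.0665 and -0.0994 in CTR mice. In mCRS mice these medians were 0.0204, -0.0595, -0.0919 and -0.0934. The part of transcript length in the members' values was not tested.

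**Figure D3:**
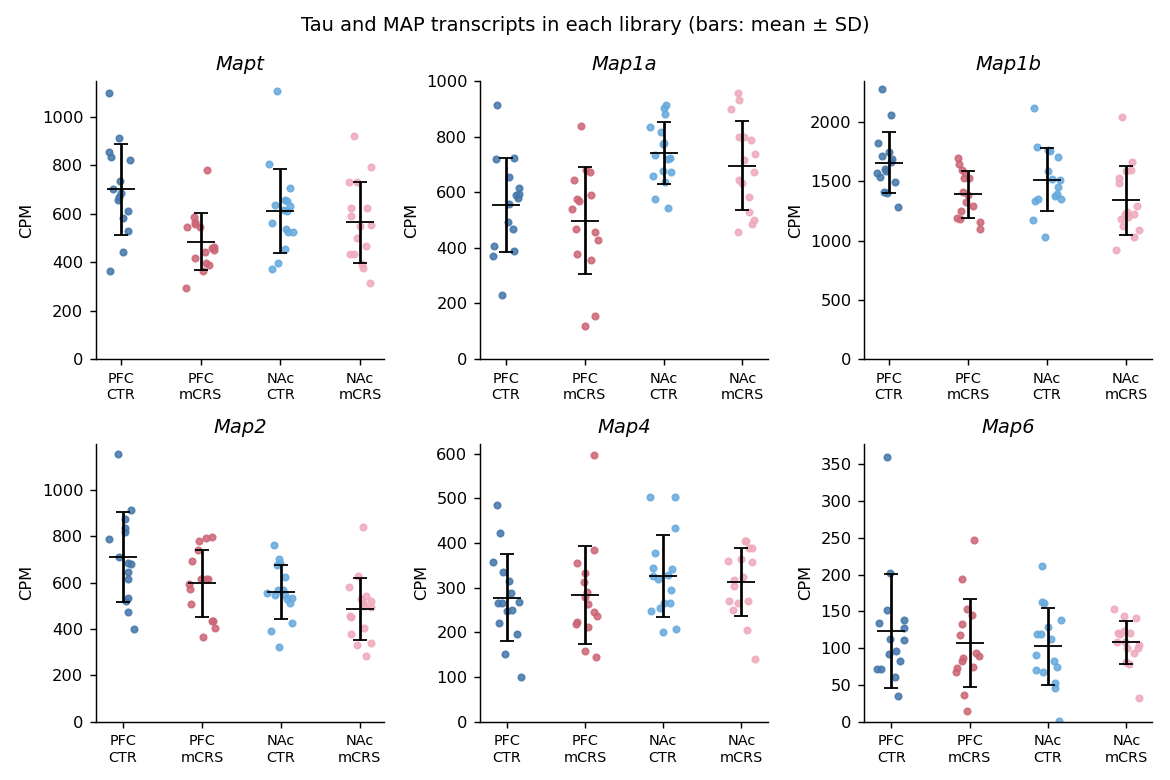
Levels of tau and the 5 MAP transcripts (CPM, linear axis from 0) in the 62 libraries, by group. Points are libraries and bars the mean ± SD. Mapt has means of 700.3 CPM in PFC CTR and 484 CPM in PFC mCRS with overlapping points, and Map1a lies lower in PFC than in NAc.

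No member was called in the NAc, where 0.00986% of the 10141 genes tested, a single gene, were called. *Stmn4* had the smallest p of the members: its lowest, median and highest levels were 62.2, 154 and 247 CPM in NAc CTR and 65.2, 212 and 497 CPM in NAc mCRS. Of the 16 mCRS libraries, 12 were above the CTR median and 6 above the highest CTR library. The log2 fold change was 0.56 (SE 0.22, unadjusted p = 0.0124, adjusted p = 1 in edgeR), with 0.82 (SE 0.36) in the first and 0.34 (SE 0.24) in the second run of the listing. It was 0.61 (SE 0.23) without NAc CTR 7 and NAc mCRS 10. This was 1 of the 10 genes at an unadjusted p below 0.05, a share to be read against 2.04% of all genes.

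The other stathmins had log2 fold changes of 0.37 (SE 0.41) for *Stmn1*, -0.14 (SE 0.14) for *Stmn2* and -0.01 (SE 0.13) for *Stmn3*. *Map2* was at -0.20 (SE 0.13), *Map1b* at -0.18 (SE 0.10, unadjusted p = 0.0835 in edgeR), *Mapt* at -0.12 (SE 0.14), *Map1a* at -0.09 (SE 0.12), *Map4* at -0.06 (SE 0.15) and *Map6* at 0.08 (SE 0.29). For tau the ranges were 374 to 1107 CPM in CTR and 312 to 920 CPM in mCRS mice, with 10 of 16 mCRS libraries below the CTR median. *Map1b* had a median of 1484 CPM in CTR and 1232 CPM in mCRS mice, and 11 of 16 mCRS libraries lay below the CTR median.

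**Figure D4:**
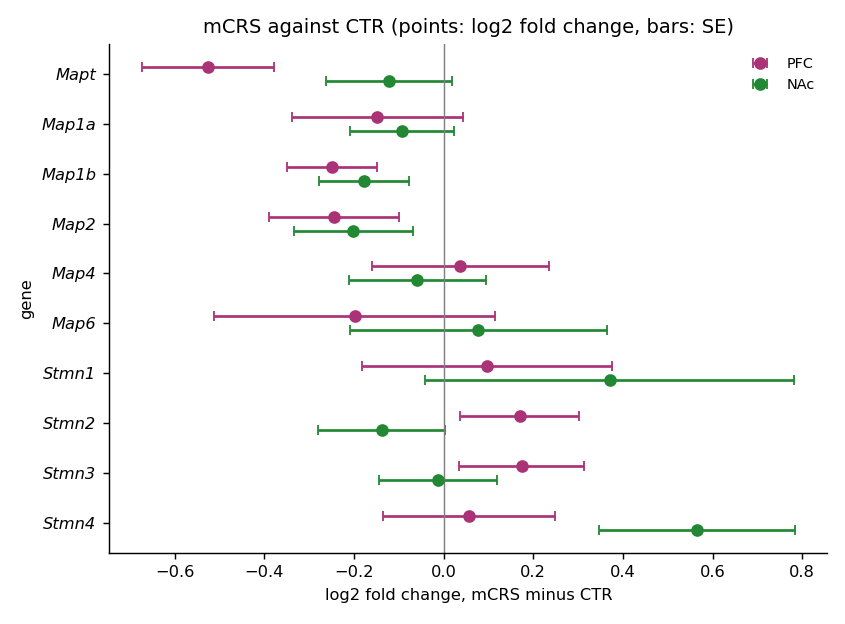
Log2 fold change of each gene between mCRS and CTR mice (x axis, positive values are higher in mCRS), in PFC and in NAc, with bars of 1 SE. Mapt in PFC at -0.53 and Stmn4 in NAc at 0.56 lie farthest from 0, and no value passed correction.

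The mCRS effect was compared between the regions directly. None of the 10 genes was called, where 0.00907% of 11025 genes were, again a single gene. *Mapt* gave a PFC effect lower than the NAc effect by -0.42 on the log2 scale (SE 0.21, unadjusted p = 0.0447, adjusted p = 1 in edgeR), 1 of 10 members at an unadjusted p below 0.05 beside 3.09% of all genes. It was -0.74 (SE 0.30) in the first run of the listing and -0.03 (SE 0.27) in the second. *Stmn2* had a difference of 0.30 (SE 0.19) and *Stmn3* of 0.18 (SE 0.19), and the remaining 6 genes apart from *Stmn4* lay between -0.29 and 0.09.

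After centring each group on its mean, log2 CPM of every pair of members was compared within a region, which made 90 pairs over both regions. Benjamini-Hochberg values over all 90 were below 0.05 for 2 pairs, both with *Stmn3*. In the 30 PFC libraries *Mapt* and *Stmn3* had Pearson's r = -0.63 (permutation p = 0.00022, adjusted p = 0.0198) and Spearman's rho = -0.61 (permutation p = 0.00056, adjusted p = 0.0504). The relation was -0.59 in CTR and -0.69 in mCRS libraries taken alone, -0.59 without the 2 libraries farthest from the *Mapt* median, and -0.62 after the share of genes detected was regressed out. Values were centred on the group and not on the run of the listing. From the first to the second run, mean *Mapt* went from 818 to 566 CPM in PFC CTR and from 456 to 508 CPM in PFC mCRS. Mean *Stmn3* went from 708 to 852 CPM in PFC CTR and from 878 to 863 CPM in PFC mCRS. The part of the run in this and the other pairs was not tested. In the 32 NAc libraries *Map1a* and *Stmn3* had r = -0.56 (permutation p = 0.00077, adjusted p = 0.0346) and rho = -0.52 (permutation p = 0.00285, adjusted p = 0.128), and r was -0.51 without the 2 libraries farthest from the *Map1a* median. That pair had r = -0.52 in PFC (permutation p = 0.00374, adjusted p = 0.0918). Without the 2 libraries farthest from the *Map1a* median the PFC value was -0.38. With the share of genes detected regressed out it was -0.41 (permutation adjusted p = 0.308).

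The NAc pair passed only narrowly: with the share of genes detected regressed out its adjusted permutation p was 0.0621, and without NAc CTR 7 and NAc mCRS 10 it was 0.0643, which left 1 pair in each case. In PFC the 15 pairs among tau and the MAPs had a median r of 0.22 and 14 of them were above 0, led by *Map1a* with *Map6* at 0.55 (permutation p = 0.0048, adjusted p = 0.0918) and *Mapt* with *Map6* at 0.50 (permutation p = 0.0051, adjusted p = 0.0918). Without the 2 libraries farthest from the median of the first gene these fell to 0.35 and 0.38, and the r of *Map1a* with *Map6* was 0.20 in CTR and 0.73 in mCRS libraries. In NAc the 15 pairs had a median r of 0.10 and 10 were above 0, and 0 had an adjusted or unadjusted permutation p below 0.05. The 24 pairs of a stathmin with tau or a MAP had a median of -0.16 in PFC, with 6 above 0, and 0.05 in NAc, with 14 above 0. Levels in one library share its depth and scaling, so these values describe the libraries and not a link between the genes.

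**Figure D5:**
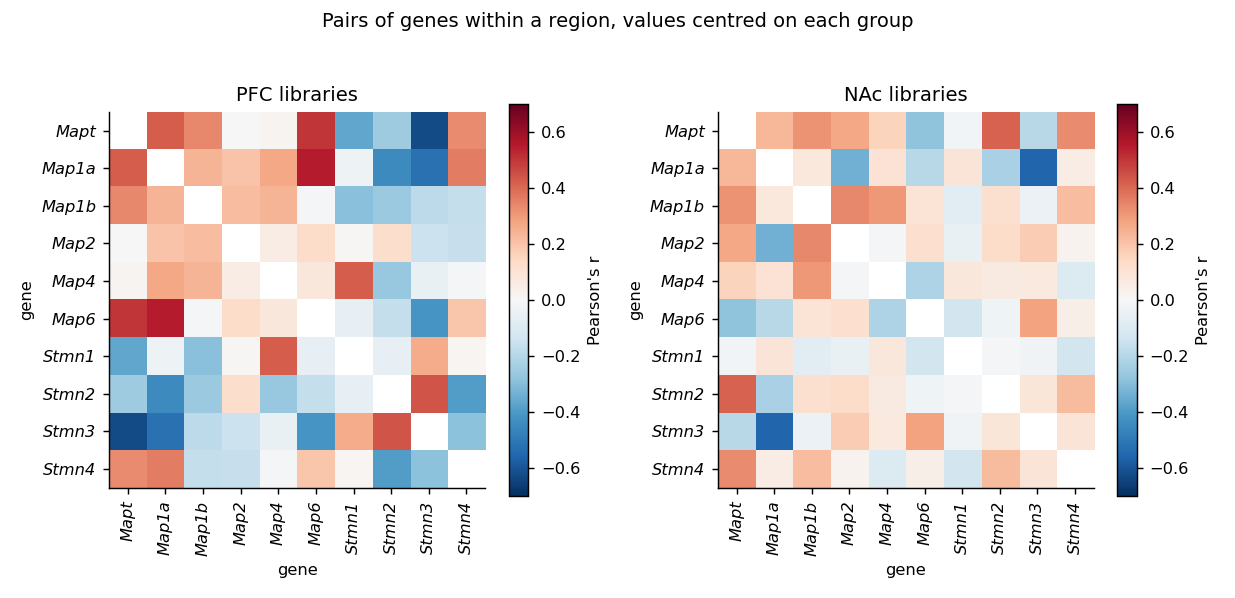
Pearson's r of each pair of the 10 genes (color scale from blue, negative, to red, positive) in the PFC and the NAc libraries, after centring each group on its mean. The darkest cells are Mapt with Stmn3 in PFC, at -0.63, and Map1a with Stmn3 in NAc, at -0.56.

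Over the 62 libraries and 11015 other genes, the gene most like each MAP was *Ptprf* for *Map1a* (r = 0.63), *Celf4* for *Map1b* (r = 0.50), *Ogt* for *Map2* (r = 0.49), *Sox10* for *Map4* (r = 0.54) and *Os9* for *Map6* (r = 0.60). For the stathmins it was *Cers5* for *Stmn1* (r = 0.43), *Resp18* for *Stmn2* (r = 0.56), *Minos1* for *Stmn3* (r = 0.55) and *Ttc9c* for *Stmn4* (r = 0.55). These are the highest of many values, on group-centred log2 CPM, and carry no test.

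The tubulins, which build the polymer, were the list with most calls between the regions. Of 16 tubulin genes 13 were tested, and in CTR mice 5 were higher and 0 lower in PFC, led by *Tuba1a* at 0.74 (SE 0.12, edgeR adjusted p = 2.95e-06), *Tuba4a* at 0.67 (SE 0.13, edgeR adjusted p = 9.3e-05) and *Tubb5* at 0.67 (SE 0.14, edgeR adjusted p = 0.00038). In mCRS mice 3 were higher, among them *Tuba4a* at 0.71 (SE 0.13) and *Tuba1a* at 0.64 (SE 0.12), and *Tubb2b* was lower at -1.29 (SE 0.36, edgeR adjusted p = 0.0121). The list's median log2 difference was 0.46 in CTR and 0.42 in mCRS mice, beside -0.04 and -0.06 over all genes. Over all genes 5.44% were called in CTR and 6.49% in mCRS mice. Of 127 genes tested over all lists, 9 were called as higher and 3 as lower in CTR, and 8 and 3 in mCRS mice.

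Among the other microtubule-associated proteins, 25 of 27 were tested, and 3 were higher and 0 lower in PFC in each group of mice. The calls in this and the following lists are to be read against 5.44% of all genes in CTR and 6.49% in mCRS mice. *Map9*, a MAP of spindles and cilia, was at 0.87 (SE 0.24) in CTR and 0.94 (SE 0.24) in mCRS mice. *Dclk1*, a doublecortin-like kinase, was at 0.52 (SE 0.16) in both, *Map1lc3a*, an autophagosome protein that also binds microtubules, at 0.57 (SE 0.14) in CTR, and *Tppp*, a tubulin polymerization protein of oligodendrocytes, at 0.75 (SE 0.20) in mCRS mice. Of 20 plus-end and growth factors, *Dst* was lower in PFC CTR at -0.69 (SE 0.18), and in mCRS mice *Dpysl2* (CRMP2) was higher at 0.54 (SE 0.14) and *Clip4* at -1.28 (SE 0.36) and *Macf1* at -0.78 (SE 0.25) were lower. Of 23 motor genes, the dynein light chains *Dynll1* at 0.51 (SE 0.16) and *Dynll2* at -0.49 (SE 0.13) were called in opposite directions in CTR mice and 0 were called in mCRS mice, where 6 had an unadjusted p below 0.05 in edgeR, beside 15.8% of all genes. *Fign*, a severing enzyme, was lower in PFC CTR at -5.17 (SE 1.19, edgeR adjusted p = 0.00162) among 6 such genes tested, and *Tbca*, a tubulin chaperone, was higher in PFC mCRS at 0.87 (SE 0.29, edgeR adjusted p = 0.0499) among 18 folding and modifying enzymes. None of the 22 kinases and phosphatases of tau was called between the regions in edgeR, and 5 in CTR and 1 in mCRS mice had an unadjusted p below 0.05, where 13.3% and 15.8% of all genes did.

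Between mCRS and CTR mice 0 genes of these 7 lists were called in either region in edgeR. At an unadjusted p below 0.05 there were 3 of 120 such genes in PFC (2.50%, beside 3.5% of all genes), all lower, and 2 of 124 in NAc (1.61%, beside 2.04%), both lower plus-end and growth factors. The tau kinases and phosphatases had a median log2 fold change of -0.07 in PFC and 0.09 in NAc, and the motors of -0.10 and -0.01.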

How the data were processed

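PFC and NAc tissue of CTR and mCRS mice was profiled by BRB-seq, in which barcoded oligo-dT primers tag the 3′ end of transcripts before pooling. The authors aligned reads with STAR to mm10 and counted uniquely mapped reads per gene with HTSeq, given as version 0.9.1 in the submitters' processing notes and as another version in the study's methods. The values are raw gene counts as deposited, not normalized and without molecular identifiers, so amplified copies are counted and counting error is understated. The authors had removed 2 PFC samples of poor sequencing quality. Rows were named by Ensembl ID, of which 11120 of 11121 had a symbol.

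Counts were filtered (filterByExpr), scaled by TMM and tested with edgeR 4.0.16 (quasi-likelihood test) in R 4.3.3, on 30 PFC or 32 NAc libraries for mCRS against CTR and on all 62 for contrasts between regions, with Benjamini-Hochberg adjustment over all genes tested. Pairs of genes were compared on log2 CPM (prior count 2) with 100000 permutations within groups (2-sided). Gene positions and transcripts came from GENCODE (GRCm38). The scripts were tested on simulated data. The genes and gene lists were chosen with earlier results of these data known, and from each list up to 3 genes with the smallest p were named where one was called. Libraries are taken as separate animals within a region, which the labels do not state. The contrasts between regions and the difference of effects had no term for the mouse in the main fit. Alternatives were DESeq2 1.42.0, RLE size factors, library sizes without mtDNA genes, other filters, covariates, the replicate number as a block and leaving out each library. Fits within each run of the listing, fits without 2 libraries that stood apart, and the pairs with genes detected regressed out were added after seeing the data. The gene most like *Mapt* is not reported here.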

Additional observations from a re-analysis of the deposited data

How the results depend on the processing

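Over 2990 fitted values of the 10 genes under the alternatives, 2905 kept their direction and their side of the threshold, 47 changed sign, 32 became called and 6 lost a call. Most of these values came from leaving out 1 library, so the total says little about changes of method. Fits within a run covered only genes with an unadjusted p below 0.05 in the main edgeR fit. The counts of called genes were 0 under all alternatives for mCRS against CTR in PFC, in NAc and for the difference of both effects. Between the regions they went from 4 to 2 in CTR mice within the first run of the listing and from 3 to 1 in mCRS mice within its second run, where fewer libraries were fitted, and with DESeq2 they were 5 and 4. The shares of all genes called in these fits are not given here, so the counts say nothing particular to the members. The 6 lost calls were all within a run: *Stmn1* in mCRS mice in both runs, *Stmn1* and *Stmn3* in CTR mice in the first, and *Stmn4* in CTR and *Stmn3* in mCRS mice in the second. The 32 gained calls were all of *Map1a*, 6 of them under the 12 alternatives in mCRS mice and 1 with DESeq2 in CTR mice. Leaving out each library gave 4 throughout in CTR and 3 to 4 in mCRS mice, where *Map1a* was called in 25 of 62 cases (edgeR adjusted p from 0.0173 to 0.103). The pairs below an adjusted p of 0.05 went from 2 to 1 with genes detected regressed out and without NAc CTR 7 and NAc mCRS 10. The cause was not tested.

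Log2 values changed sign as follows. In PFC mCRS against CTR, *Stmn4* became -0.00202 with the replicate block, and with genes detected as a covariate *Map1a* became 0.0858 and *Stmn2* -0.0129. In NAc, *Stmn3* became 0.00511 with the replicate block, and 0.0267 without NAc CTR 7 and NAc mCRS 10, where *Map4* became 0.00295. Between the regions in mCRS mice, *Map1b* became -0.00483 with RLE size factors and -0.00492 with DESeq2, and *Map6* 0.0138 with at least 10 counts in 50% of libraries and 0.201 with genes detected as a covariate. For the difference of effects, *Map2* became 0.00533 with the replicate block. Leaving out 1 library gave ranges that crossed 0 for *Map4* (-0.0812 to 0.108), *Map6* (-0.341 to 0.0104) and *Stmn4* (-0.0184 to 0.110) in PFC, for *Map6* (-0.0145 to 0.186) and *Stmn3* (-0.0342 to 0.0547) in NAc, for *Map6* between the regions in mCRS mice (-0.161 to 0.0749), and for *Map1a* (-0.152 to 0.00855), *Map2* (-0.107 to 0.0214) and *Map4* (-0.0526 to 0.150) in the difference of effects.

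Over all genes, those at an unadjusted p below 0.05 in PFC numbered 312, but 184 with genes detected as a covariate and 541 with all 62 libraries in one fit, and in NAc 207, but 338 with DESeq2. Genes at an adjusted p below 0.05 were 0 to 5 in PFC, 0 to 2 in NAc and 0 to 1 for the difference. Same-numbered PFC and NAc libraries had correlations of their deviations from -0.0154 to 0.0246 in CTR and from -0.0257 to 0.0204 in mCRS mice. Same-numbered CTR and mCRS libraries of a region, which are different mice, ranged from -0.0285 to 0.0533 in PFC. In NAc they ranged from -0.0304 to 0.0387. Such values cannot decide whether a shared number marks a shared mouse, because libraries of the same mouse need not vary together. With the replicate block, *Map1a* was called between the regions in mCRS mice (-0.551, edgeR adjusted p = 0.0462) and *Mapt* in PFC was at -0.516 (edgeR adjusted p = 0.719). At these depths the members had from 2 to 8920 counts per library, and *Stmn1* and *Map6*, with the lowest counts, had the widest errors within PFC and NAc fits.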
